A study of Mus musculus with 3 samples.

Results

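Small RNA reads of the aspartate tRNA with anticodon GTC (Asp-GTC) were examined in mouse epididymis, the duct in which sperm mature, with and without the demethylase ALKBH3. The members were all tRNA genes whose deposited name begins with tRNA-Asp-GTC-, which gave 16 of the 446 tRNA genes listed. The rule uses gene names only. The small RNA had been cut from a gel at 15 to 50 nt before sequencing. The study compared 2 libraries of Alkbh3-/- epididymis with 1 library of wild-type epididymis. The labels give tissue and genotype. The wild-type column is headed B6WT, and the headings of the Alkbh3-/- columns hold KO with differing numbers and name no strain. Age, sex, the nature of the Alkbh3 allele and whether the Alkbh3-/- libraries came from separate animals are not stated there. No count of Alkbh3 itself was analysed here, so the genotype was not checked against the targeted gene.

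tRNA fragments are made when nucleases cut a tRNA, often in the anticodon loop, which leaves a 5′ and a 3′ piece. ALKBH3 takes the methyl group off 1-methyladenosine and 3-methylcytidine, which occur in tRNA. tRNA-Asp-GTC carries queuosine at the wobble base of its anticodon, as do the tRNAs for asparagine, histidine and tyrosine, and it is a substrate of the methyltransferase DNMT2, as are Gly-GCC and Val-AAC. Both modifications lie in the anticodon loop and are known to guard tRNA from cleavage there.

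The 16 genes are each 72 bp long, and each has the start and end of a tRNA gene in RefSeq's annotation of the same mouse assembly (mm10, GRCm38). They lie on 6 chromosomes, with 5 on chromosome 1, 3 each on chromosomes 5 and 13, 2 each on chromosomes 10 and 11, and 1 on chromosome 2. On the plus strand there are 5 and on the minus strand 11. By the naming of genomic tRNA databases, copies with the same first number have the same mature sequence, so 13 copies (tRNA-Asp-GTC-1-1 to 1-13) are 1 tRNA in sequence, and tRNA-Asp-GTC-2-1, 3-1 and 4-1 are sequence variants. GENCODE places 2 copies inside another gene. tRNA-Asp-GTC-3-1 (chromosome 2, 114103367 to 114103438, plus strand) lies in an intron of Aqr on the other strand. tRNA-Asp-GTC-1-13 (chromosome 13, 21940319 to 21940390, minus strand) shares its first 17 bases with an exon of the long non-coding RNA Gm11280 on the same strand. By that naming, these bases are the 5′ end of all 13 copies, at which a 5′ fragment of them would begin, and they were read from the Gm11280 transcript (chr13:21940374-21940390, GRCm38, minus strand, 5′ to 3′, no letter marked):
tRNA-Asp-GTC-1-13, first 17 bases: tcctcgttagtatagtg

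The 5-class library totals were 15411457 and 21169908 reads in the Alkbh3-/- libraries 1 and 2, and 15107055 in the wild type, of which 5623960, 8063516 and 6754440 were tRNA reads. miRNA reads took 24.8% and 30.7% of the Alkbh3-/- libraries and 15.1% of the wild type. This difference moves every level scaled to the library total, so the sign of small changes depends on the scaling. With miRNA reads left out of the total, the Asp-GTC log2 fold change given next is 0.15 in place of -0.09. Counts over tRNA genes differed between the Alkbh3-/- libraries beyond sampling noise, where the chi-square was 43.3 times its degrees of freedom, against 715 and 856 times when libraries 1 and 2 were set against the wild type. A chi-square grows with the number of reads, so the tRNAs with most reads weigh most, and these values do not describe Asp-GTC. With 1 wild-type library, genotype cannot be told apart from a difference between libraries. Values are given as RPM, with the 5-class total as the denominator, means carry the SD over the 2 Alkbh3-/- libraries, and the wild type has no replicate.

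Asp-GTC reads did not differ detectably between the genotypes. The gene table held 13335 and 20757 Asp-GTC reads in the Alkbh3-/- libraries and 14855 in the wild type, which is 865 and 980 RPM against 983 RPM. Library 2 was thus at the wild-type level and library 1 below it. The Alkbh3-/- mean of 923 ± 81.5 RPM (SD, n = 2) was 0.939 times the wild type, with a fitted log2 fold change of -0.09 (SE 0.51, 95% interval -1.12 to 0.93, adjusted p = 0.878 in edgeR's quasi-likelihood test with Benjamini-Hochberg adjustment). The interval includes -1, so these libraries do not separate such a level from an equal one. Of 45 anticodons tested, 5 were called (11.1%), 1 higher (2.22%) and 4 lower (8.89%), and the median log2 fold change was -0.29. With TMM factors the Asp-GTC value was 0.17, with DESeq2 0.23, and it was not called in either.

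By rank, Asp-GTC was among the more abundant tRNA sources of small RNA in this tissue, though its share of the reads was small. It was the 9th of 50 anticodons with reads in each library, between Val-AAC (1420 and 1885 RPM in the Alkbh3-/- libraries, 2017 RPM in the wild type) and Ala-CGC (387 and 424 RPM, against 316 RPM in the wild type). No library changed the order of these 3 anticodons. Asp-GTC made up 0.399% and 0.435% of the gene table in the Alkbh3-/- libraries and 0.370% in the wild type. When Gly-GCC and Glu-CTC, the most abundant sources, were left out of the total, its share was 2.53% and 2.81% in the Alkbh3-/- libraries and 2.18% in the wild type. These shares were higher in both Alkbh3-/- libraries, while the RPM was not. With the gene-table column sums as library size, which tests the first share, the log2 fold change was 0.17. It did not pass (adjusted p = 0.719 in edgeR's quasi-likelihood test). The share without Gly-GCC and Glu-CTC was not tested.

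The per-library tables divide reads into 2 classes with no description, called the first and the second class by the order of their columns. Most Asp-GTC reads were of the second class. The second class held 10436 and 14264 reads in the Alkbh3-/- libraries and 11262 in the wild type, or 72.6% and 65.3% against 70.3% of Asp-GTC reads. The first class held 3931 and 7567 reads in the Alkbh3-/- libraries and 4754 in the wild type. Its share was 27.4% (95% Wilson interval 26.6 to 28.1%) and 34.7% (34.03 to 35.3%) in the Alkbh3-/- libraries, and 29.7% (28.98 to 30.4%) in the wild type. The wild type lay between the Alkbh3-/- libraries. These intervals cover counting error only.

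Among 24 anticodons with at least 1000 reads in every library, Asp-GTC had the second highest share of second-class reads, after elongator Met-CAT (means over the 3 libraries of 69.4% and 80.7%). These were the only 2 of the 24 above 50% in every library. Val-TAC (47.6%) and Leu-AAG (42.8%) came next, the median of the 23 others was 1.61%, and the lowest was 0.0063% in Gly-GCC. The tRNAs that share its modifications ranged widely. Of the DNMT2 substrates, Val-AAC had 0.154% and 0.107% in the Alkbh3-/- libraries and 0.140% in the wild type. Of the queuosine tRNAs, His-GTG had 0.0405% and 0.0267% in the Alkbh3-/- libraries and 0.0329% in the wild type, whereas Asn-GTT, like Asp-GTC above 50% in every library, had 61.2% and 65.8% in the Alkbh3-/- libraries and 81.3% in the wild type. Tyr-GTA had 32.8% and 46.1% in the Alkbh3-/- libraries and 43.1% in the wild type. Asn-GTT and Tyr-GTA had too few reads to be among the 24. The queuosine tRNAs thus spanned nearly the whole range. The order of shares is a description over anticodons in the same 3 libraries.

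**Figure D1:**
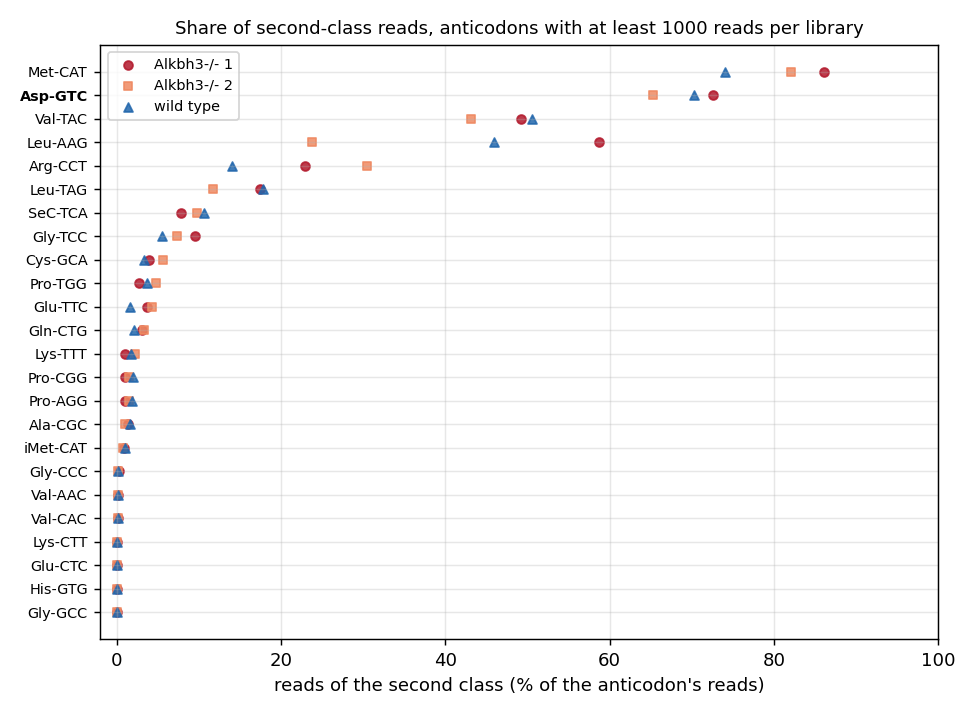
Share of second-class reads (percent of the anticodon's reads, x axis) in the 24 anticodons with at least 1000 reads in each library, 1 point per library, ordered by the mean. Asp-GTC has 72.6% and 65.3% in the Alkbh3-/- libraries and 70.3% in the wild type, and only Met-CAT is higher.

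Neither class differed detectably in level. First-class reads stood at 255 and 357 RPM in the Alkbh3-/- libraries (mean 306 ± 72.4, SD, n = 2) and 315 RPM in the wild type, a log2 fold change of -0.04 (SE 0.42, 95% interval -0.87 to 0.79, adjusted p = 0.969 in edgeR's quasi-likelihood test). Second-class reads stood at 677 and 674 RPM in the Alkbh3-/- libraries (mean 675 ± 2.38, SD, n = 2) and 745 RPM in the wild type, a log2 fold change of -0.14 (SE 0.38, 95% interval -0.90 to 0.62, adjusted p = 0.911 in the same test). By RPM, the second class was below the wild type in both Alkbh3-/- libraries and the first class was on either side of it. The direction of the second class depends on the scaling. Relative to the tRNA class total it was above the wild type in both Alkbh3-/- libraries, which was not tested. In the fit of class sums by the 5-class total, added after the data were seen, 7 of 89 were called (7.87%). Of the 2 Asp-GTC sums 0 were called and 0 had an unadjusted p under 0.05, against 15 of the 89 sums in all.

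Read lengths fell into a few sharp peaks. In the first class, lengths of 32, 34 and 35 nt held 62.7% and 66.7% of the reads in the Alkbh3-/- libraries and 64.0% in the wild type. In the second class, lengths of 34, 35, 36, 38 and 39 nt held 93.7% and 92.5% in the Alkbh3-/- libraries and 92.9% in the wild type. The most frequent first- and second-class lengths were 35 and 38 nt in Alkbh3-/- library 1, 34 and 34 nt in library 2, and 34 and 38 nt in the wild type. Read per copy and library, where each class had at least 50 reads (42 cases over 14 copies), these 2 lengths summed to the 72 nt of the gene in 21 cases. In 10 they summed to 1 nt more, in 10 to 4 nt less and in 1 to 3 nt less. These copies are tRNA-Asp-GTC-2-1 and the 13 that are 1 mature sequence by their names, so the cases are not separate evidence. The lengths given above for each library summed to 73 and 68 nt in Alkbh3-/- libraries 1 and 2, and to 72 nt in the wild type. For tRNA-Asp-GTC-2-1 the sum was 68 nt in each library. A tRNA cut once gives pieces whose lengths add up to its own, apart from bases added or lost at the ends. Whether the classes are the 5′ and 3′ pieces was not given.

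**Figure D2:**
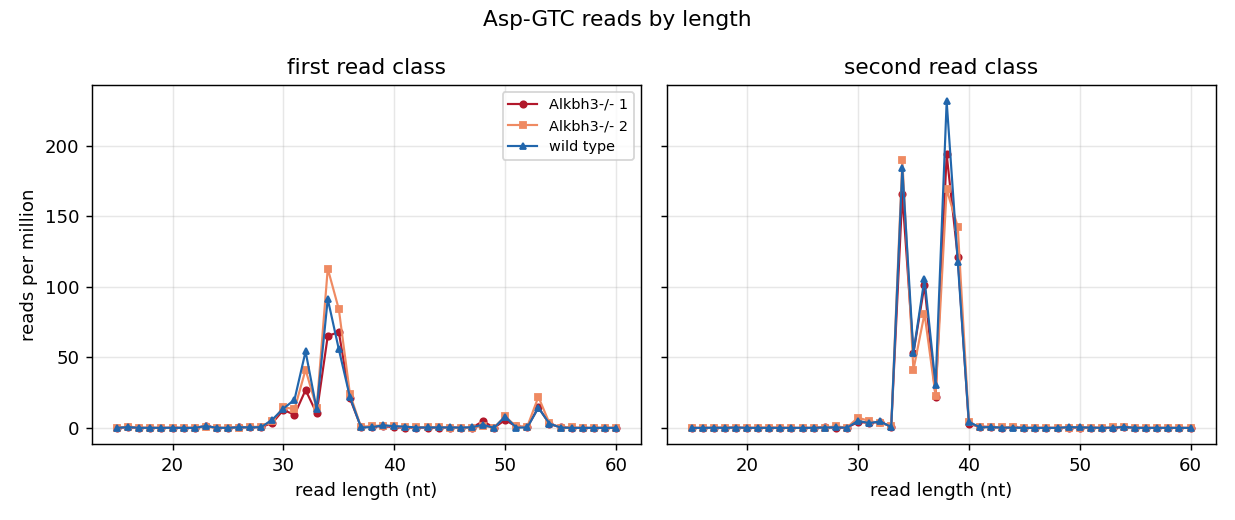
Asp-GTC reads as RPM (y axis) by read length in nt (x axis) in the first read class (left) and the second (right), 1 line per library. The second class peaks at 34 and 38 nt, with 166 and 190 RPM at 34 nt in the Alkbh3-/- libraries against 184 RPM in the wild type.

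The most abundant single fragment was the second-class read of 38 nt. It had 194 and 169 RPM in the Alkbh3-/- libraries (mean 181 ± 17.5, SD, n = 2) and 231 RPM in the wild type, so both Alkbh3-/- libraries were lower (log2 -0.35, SE 0.47, adjusted p = 0.793 in edgeR's quasi-likelihood test). The log2 fold change was nearer to 0 with column sums (-0.0658), the tRNA class total (-0.0869) and a total without miRNA reads (-0.12). The 39 nt read, 1 base longer, had 121 and 143 RPM in the Alkbh3-/- libraries (mean 132 ± 15.1) and 118 RPM in the wild type, so both were higher (log2 0.16, SE 0.51, adjusted p = 0.931 in the same test). The ratio of 39 to 38 nt reads was 0.625 and 0.843 in the Alkbh3-/- libraries and 0.509 in the wild type. The second-class 34 nt read had 166 and 190 RPM in the Alkbh3-/- libraries (mean 178 ± 17.1) and 184 RPM in the wild type, which lay between them. Its log2 fold change was -0.05 (SE 0.48). The other second-class reads among the 10 most abundant fragments were those of 36 nt (101 and 81.0 RPM, against 106 RPM in the wild type), 35 nt (53.1 and 41.1 RPM, against 53.3 RPM) and 37 nt (21.9 and 23.0 RPM, against 30.6 RPM). All 3 were below the wild type in both Alkbh3-/- libraries, though the 35 nt read of library 1 was nearly equal to it.

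Among first-class reads, those of 32 nt were fewer and those of 35 nt more in both Alkbh3-/- libraries. The 32 nt read had 26.9 and 41.2 RPM in the Alkbh3-/- libraries (mean 34.1 ± 10.2, SD, n = 2) and 54.2 RPM in the wild type (log2 -0.67, SE 0.57, adjusted p = 0.661 in edgeR's quasi-likelihood test). The 35 nt read had 67.9 and 84.1 RPM in the Alkbh3-/- libraries (mean 76.0 ± 11.4) and 55.7 RPM in the wild type (log2 0.45, SE 0.56, adjusted p = 0.773 in the same test). Neither difference passed the test. The wild type lay outside the pair of Alkbh3-/- libraries for both lengths, but with only 3 libraries this is common by chance. Without Alkbh3-/- library 1 the log2 fold changes were -0.39 and 0.59 for 32 and 35 nt, and without library 2 they were -1.01 and 0.29. With column sums they were -0.39 and 0.73. The first-class 34 nt read had 65.1 and 113 RPM in the Alkbh3-/- libraries and 91.4 RPM in the wild type, with no common direction. The 36 nt read had 21.02 and 24.04 RPM in the Alkbh3-/- libraries and 21.9 RPM in the wild type. A minor peak at 53 nt, longer than the gel piece, had 14.6 and 22.0 RPM in the Alkbh3-/- libraries and 14.3 RPM in the wild type.

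**Figure D3:**
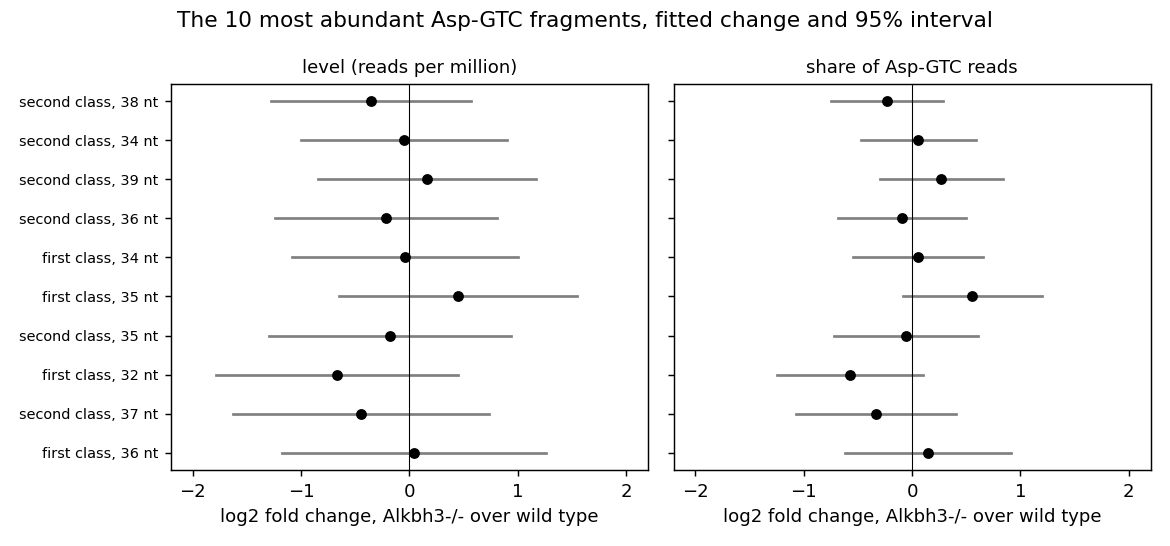
Fitted log2 fold change of Alkbh3-/- over wild type (x axis) with its 95% interval for the 10 most abundant Asp-GTC fragments, as level (left) and as share of Asp-GTC reads (right). Every interval includes 0, and the points farthest from 0 are the first-class reads of 32 nt (-0.67 as level) and 35 nt (0.45).

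Shares remove the scaling to the library. Of first-class reads, those of 32 nt were 10.5% and 11.5% in the Alkbh3-/- libraries (mean 11.03% ± 0.711, SD, n = 2) and 17.2% in the wild type. Those of 35 nt were 26.6% and 23.5% (mean 25.1% ± 2.2) in the Alkbh3-/- libraries and 17.7% in the wild type. Those of 31 nt were 3.64% and 3.70% in the Alkbh3-/- libraries and 6.35% in the wild type. The ratio of 35 to 32 nt reads was thus 2.53 and 2.04 in the Alkbh3-/- libraries and 1.03 in the wild type. The mean first-class length was 35.8 and 35.7 nt in the Alkbh3-/- libraries and 35.1 nt in the wild type, and the mean second-class length was 36.5 nt in all 3. Of second-class reads, those of 38 nt were 28.6% and 25.1% in the Alkbh3-/- libraries and 31.1% in the wild type, and those of 39 nt were 17.9% and 21.2% against 15.8%.

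In the test of shares, these differences did not pass. As a share of Asp-GTC reads, the log2 fold change was -0.57 (SE 0.34, adjusted p = 0.496) for the 32 nt read, 0.56 (SE 0.33, adjusted p = 0.471) for the 35 nt read and -0.72 (SE 0.42, adjusted p = 0.448) for the 31 nt read, in edgeR's quasi-likelihood test with Benjamini-Hochberg adjustment. As a share of the read class, an alternative added after the data were seen, the values were -0.64 (adjusted p = 0.374), 0.50 (adjusted p = 0.520) and -0.79 (adjusted p = 0.342) in the same order, in the same test. Their unadjusted p was 0.0350, 0.0793 and 0.0294.

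Of 78 Asp-GTC fragments with reads, defined by class and length, 36 passed the filter on low counts. Of these 36, 0 were called by level, with 0 at an unadjusted p under 0.05 in edgeR's quasi-likelihood test and 0 by DESeq2, which also called 0. Over all anticodons 18 of 834 fragments were called by level (2.16%), and 103 of the 834 had an unadjusted p under 0.05 in edgeR's test. The Asp-GTC fragments had 19 fitted above 0 and 17 below, with a median log2 fold change of 0.01 against -0.01 over all 834. As shares within the anticodon, 0 of the 36 were called, against 43 of 834 over all anticodons (5.16%). An unadjusted p under 0.05 was found for 1 of the 36, against 123 of the 834. The median was 0.11, as over all 834. The 1 fragment was the scarce first-class read of 51 nt, with 16 and 22 reads in the Alkbh3-/- libraries and 3 in the wild type (log2 2.45, adjusted p = 0.283 in edgeR's quasi-likelihood test). It was named after its values were seen.

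The difference in first-class lengths was found in nearly every copy. Among the 15 copies with at least 100 first-class reads in each library, the 32 nt share was lower in both Alkbh3-/- libraries in 15, the 31 nt share in 13, and the 35 nt share was higher in both in 14. Among the 14 copies with at least 100 second-class reads, the 38 nt share was lower in both in 13 and the 39 nt share higher in 12. The copies are near-identical in sequence and come from the same 3 libraries, so they are not separate evidence. Of first-class reads of 30 to 36 nt, those of 33 to 36 nt made up 77.1% (95% Wilson interval 75.6 to 78.5%) and 77.3% (76.2 to 78.3%) in the Alkbh3-/- libraries and 67.4% (66.0 to 68.9%) in the wild type. The Alkbh3-/- mean was 77.2% ± 0.131 (SD, n = 2), a difference of 9.72 percentage points. This split restates the 31, 32 and 35 nt shares, and with no wild-type replicate the SD is no measure of its error. Of 20 other anticodons with at least 500 such reads, this share was higher in both Alkbh3-/- libraries in 12, lower in both in 4 and neither in 4. Glu-CTC (13.8 points) and Cys-GCA (11.8 points) differed by more than Asp-GTC, so the direction was not particular to it. These shares were not tested.

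**Figure D4:**
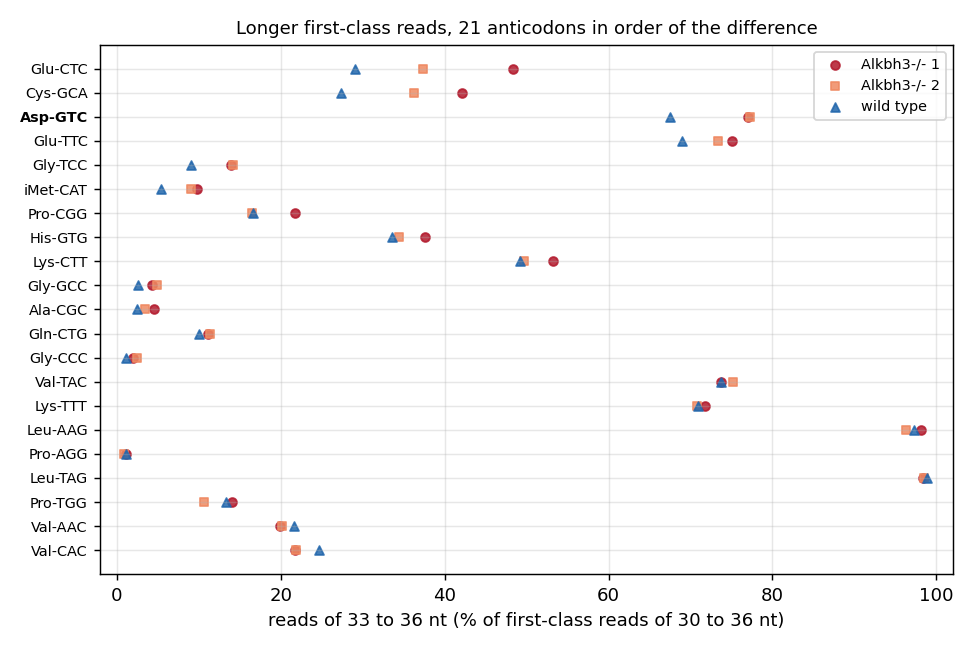
Reads of 33 to 36 nt as a percent of first-class reads of 30 to 36 nt (x axis) in the 21 anticodons with at least 500 such reads, 1 point per library, ordered by the difference of the Alkbh3-/- mean from the wild type. Only Glu-CTC and Cys-GCA differ more than Asp-GTC, which has 77.1% and 77.3% in the Alkbh3-/- libraries against 67.4% in the wild type.

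Over both classes, the wild type lay between the Alkbh3-/- libraries in the 2 ranges that held most reads. Reads of 30 to 36 nt made up 58.6% and 61.4% of Asp-GTC reads in the Alkbh3-/- libraries (mean 60.0% ± 2.02, SD, n = 2) and 59.1% in the wild type. Reads of 37 to 50 nt made up 38.3% and 34.7% (mean 36.5% ± 2.58) in the Alkbh3-/- libraries and 38.1% in the wild type. Reads of 51 nt and longer made up 2.19% (95% Wilson interval 1.97 to 2.45%) and 2.91% (2.69 to 3.14%) in the Alkbh3-/- libraries and 1.82% (1.63 to 2.04%) in the wild type, higher in both Alkbh3-/- libraries. Shorter reads were rare, with 0.640% and 0.765% at 25 to 29 nt in the Alkbh3-/- libraries against 0.762% in the wild type. At 15 to 24 nt the shares were 0.299% and 0.252% in the Alkbh3-/- libraries and 0.237% in the wild type, also higher in both, with intervals that overlap. None of these ranges was tested.

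The Asp-GTC length profile was most like that of Val-TAC. The total variation distance between profiles, which is 0 for equal and 1 for disjoint profiles, was 0.294 to Val-TAC, 0.513 to Glu-TTC and 0.530 to Leu-TAG, the 3 nearest of the 23 others. Between libraries, the Asp-GTC profile differed by 0.0649 and 0.0993 when Alkbh3-/- libraries 1 and 2 were set against the wild type, and by 0.0891 between the Alkbh3-/- libraries. The genotypes thus differed about as much as the Alkbh3-/- libraries did. Reads of 38 nt were the most frequent length of Val-TAC (33.7%, mean of the 3 libraries) and made up 19.8% of Asp-GTC reads. Glu-TTC and Leu-TAG had 0.0932% and 0.796% there.

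The copies of the main sequence carried most reads. In the gene table the 13 copies held 88.5% and 87.0% of Asp-GTC reads in the Alkbh3-/- libraries and 86.7% in the wild type, and tRNA-Asp-GTC-2-1 held 10.5% and 11.8% against 12.3%. The variants 4-1 and 3-1 were scarce. tRNA-Asp-GTC-4-1 (chromosome 5, 100992874 to 100992945, minus strand) held 0.885% and 1.11% in the Alkbh3-/- libraries and 1.04% in the wild type, and tRNA-Asp-GTC-3-1 held 0.120% and 0.0915% against 0.0539%.

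**Figure D5:**
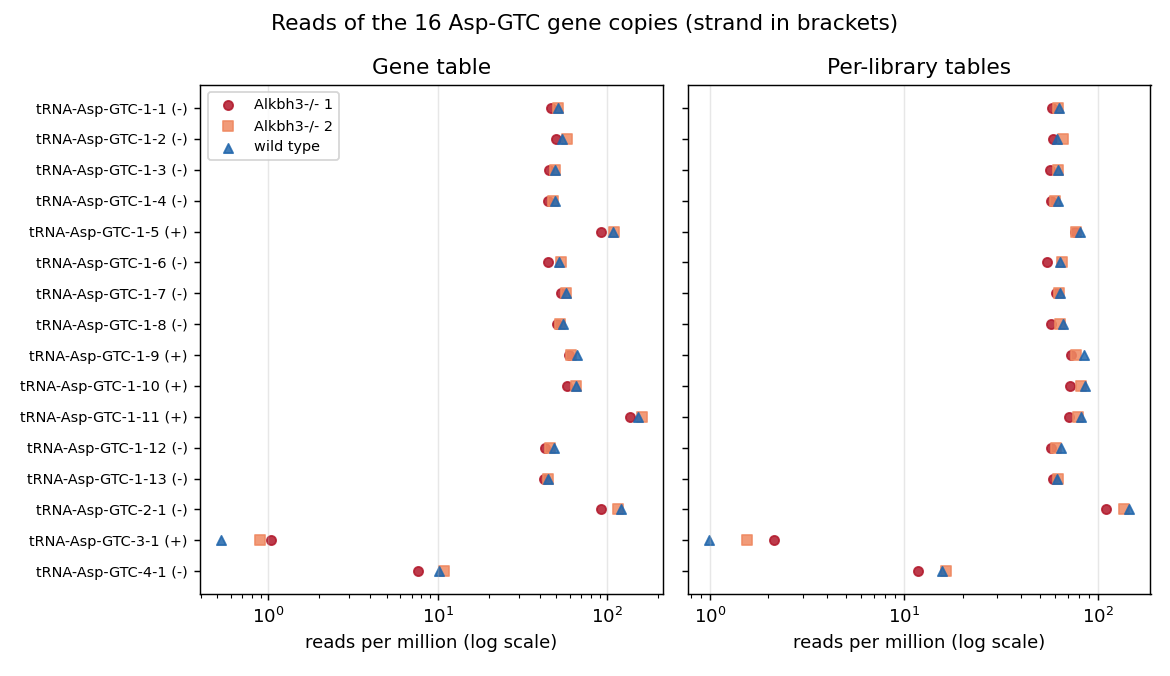
Reads as RPM (x axis, log scale) of the 16 Asp-GTC gene copies, named down the page with their strand, in the gene table (left) and in the per-library tables, both classes summed (right), 1 point per library. tRNA-Asp-GTC-1-11 leads the gene table with 136 and 159 RPM in the Alkbh3-/- libraries and 153 RPM in the wild type, and lies among the other plus-strand copies of its group in the per-library tables.

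Of the 3 most abundant copies, tRNA-Asp-GTC-1-11 (chromosome 13, 21911313 to 21911384, plus strand) had 136 and 159 RPM in the Alkbh3-/- libraries (mean 148 ± 16.1, SD, n = 2) and 153 RPM in the wild type. tRNA-Asp-GTC-2-1 (chromosome 10, 91182097 to 91182168, minus strand) had 91.2 and 116 RPM in the Alkbh3-/- libraries (mean 103 ± 17.4) and 121 RPM in the wild type. tRNA-Asp-GTC-1-5 (chromosome 1, 171102371 to 171102442, plus strand) had 91.6 and 109 RPM in the Alkbh3-/- libraries (mean 100.3 ± 12.3) and 108 RPM in the wild type. In the gene table both Alkbh3-/- libraries were below the wild type only for 2-1, and in the per-library tables for all 3 copies. The log2 fold changes were -0.05 (SE 0.45, adjusted p = 0.972), -0.22 (SE 0.46, adjusted p = 0.927) and -0.11 (SE 0.47, adjusted p = 0.954) for 1-11, 2-1 and 1-5, in edgeR's quasi-likelihood test with Benjamini-Hochberg adjustment.

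None of the 16 copies was called, 0 had an unadjusted p under 0.05 by this test, and with DESeq2 both counts were 0. Of the 348 genes tested, 41 were called (11.8%), and 54 had an unadjusted p under 0.05 in edgeR's test. The copies had 15 fitted below 0 and 1 above, from -0.22 to 0.85, with a median of -0.08 against -0.17 over all genes. Copies of near-identical sequence are not independent of each other. With TMM factors, column sums, the tRNA class total or a total without miRNA reads, all 16 were fitted above 0. The 1 copy above 0 in the main scaling was tRNA-Asp-GTC-3-1, with 16 and 19 reads in the Alkbh3-/- libraries and 8 in the wild type (log2 0.85, SE 0.72, adjusted p = 0.681 in the same test).

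The sequence variants differed in read class, by the reads assigned to them. How reads common to several copies were assigned was not given, so a variant's values may include reads of other copies. Second-class reads made up 74.9% and 68.0% of the 13-copy group in the Alkbh3-/- libraries and 73.0% in the wild type. For tRNA-Asp-GTC-2-1 they made up 64.2% and 56.5% in the Alkbh3-/- libraries and 60.7% in the wild type, lower than the group in each library. For tRNA-Asp-GTC-4-1 they were nearly absent, with 6 of 181 reads (3.31%) and 0 of 347 in the Alkbh3-/- libraries and 14 of 236 (5.93%) in the wild type. The 0 of 347 allows a share of up to 0.865%, taking 3 counts as the limit. tRNA-Asp-GTC-3-1 had 15 of 33 reads and 2 of 33 in the Alkbh3-/- libraries, and 3 of 15 in the wild type, too few for an order.

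Lengths also differed between tRNA-Asp-GTC-2-1 and the 13-copy group, with the same limit on how reads were assigned. Of second-class reads, 34 nt made up 34.1% and 40.0% for 2-1 in the Alkbh3-/- libraries and 32.6% in the wild type, and for the group 23.4% and 26.6% against 23.7%. Reads of 38 nt made up 23.1% and 18.8% for 2-1 in the Alkbh3-/- libraries and 26.8% in the wild type, and for the group 29.3% and 25.9% against 31.7%. In every library 2-1 thus had more of 34 nt and fewer of 38 nt. Of first-class reads, 53 nt made up 2.16% and 5.27% for 2-1 in the Alkbh3-/- libraries and 1.40% in the wild type, and for the group 6.76% and 6.74% against 5.57%.

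Within the 13-copy group, whose members cannot be told apart by mature sequence, reads were not spread evenly. In the per-library tables the 4 plus-strand copies had 1095 to 1175 and 1623 to 1736 reads in the Alkbh3-/- libraries and 1211 to 1296 in the wild type. The 9 minus-strand copies had 837 to 933 and 1263 to 1389 reads in the Alkbh3-/- libraries and 923 to 992 in the wild type. The strands did not overlap in any library, and the ratio of their medians was 1.26 and 1.25 in the Alkbh3-/- libraries and 1.32 in the wild type. Of 12 other tRNA groups with at least 2 copies on each strand and a median of at least 50 reads, 7 had this ratio above 1 in all 3 libraries, and in 4 the strands did not overlap. In the gene table the highest of the 13 copies had 3.24 and 3.58 times the reads of the lowest in the Alkbh3-/- libraries and 3.43 times in the wild type, against 1.40, 1.37 and 1.40 times in the per-library tables. tRNA-Asp-GTC-1-11 had 1.92 and 2.02 times as many reads in the gene table as in the per-library tables of the Alkbh3-/- libraries, and 1.88 times in the wild type. The median of the group was 0.818 and 0.817 times, against 0.815 in the wild type. The high rank of 1-11 was thus found in the gene table and not in the per-library tables.

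The tRNAs that share a modification or a known role with Asp-GTC are given beside the 11.1% of anticodons called in all. Of the 4 queuosine tRNAs, 1 was called lower, 0 higher and 3 did not pass, with a median log2 fold change of -0.56 against -0.29 over all 45 anticodons. The 1 was Asn-GTT, with 45.6 and 64.9 RPM in the Alkbh3-/- libraries and 209.6 RPM in the wild type. Of the 3 DNMT2 substrates, Gly-GCC was called lower and neither Asp-GTC nor Val-AAC passed, with a median of -0.29. Of 10 tRNAs that are known to yield many 5′ fragments in the male tract, Glu-CTC was called higher, Gly-GCC lower, and 8 did not pass, Asp-GTC among them, with a median of -0.33. These lists overlap, since Asp-GTC is in all 3 and Gly-GCC in 2. With miRNA reads left out of the total none of the 3 calls held (adjusted p = 0.0547 for Asn-GTT and Glu-CTC and 0.744 for Gly-GCC in edgeR's quasi-likelihood test). Over 9 alternatives Asn-GTT and Glu-CTC were called in 7 each, with adjusted p up to 0.0925 and 0.104, and Gly-GCC in 6.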

How the data were processed

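The authors deposited read counts, not normalized, in 3 kinds of table: counts per RNA class (5 classes) and library, counts per tRNA gene, and 1 table per library with counts in 2 read classes. The deposited length lists of the last kind, whose unit was recorded as other (entries that pair read lengths with read numbers), matched the class counts in all 1213 lists, with 0 mismatches. RNA of 15 to 50 nt was recovered from a 15% gel loaded with 100 µg, per the labels' protocols. Per the submitters' processing notes, cutadapt was used and the build was mm10. Aligner, counter and the handling of reads common to several copies were not given in the sources used here, nor is the reason why the tRNA gene table holds 0.631, 0.627 (Alkbh3-/-) and 0.622 (wild type) times the reads of the per-library tables (0.928, 0.951 and 0.928 for Asp-GTC).

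Counts were summed per anticodon, per gene, and per anticodon, read class and length. Each table was tested whole with edgeR 4.0.16 (R 4.3.3): quasi-likelihood, two-sided, library size set to the 5-class total without a composition factor, filterByExpr, Benjamini-Hochberg at 0.05. For shares, the log of the anticodon's per-library total was the offset. The 1 wild-type library is taken to vary as do the 2 Alkbh3-/- libraries, which leave 1 residual degree of freedom, and the prior degrees of freedom were infinite in the main fits (7.45 for shares within the read class), so p-values rest on the spread of similarly abundant features and may measure technical spread. The SE is the size of the log2 fold change divided by the root of F. Wilson intervals are at 95%. The scripts were tested on simulated data. The planted changes were larger than those fitted for the 10 most abundant fragments, so that test does not show whether changes of such size would be detected. Values are given in full for the 3 copies and the 10 fragments with the highest mean RPM, for any that pass, and for the 3 anticodons with the nearest length profile. Alternatives were other library sizes, TMM factors, DESeq2 1.42.0, other filters, no dispersion trend, per-library counts and leaving out each Alkbh3-/- library. The members, lists and tests were chosen with earlier results of these data known.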

Additional observations from a re-analysis of the deposited data

How the results depend on the processing

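The number of Asp-GTC copies called stayed at 0 of 16 and the number of fragments at 0 of 36, by level and by share, in every alternative that kept these features. The sign of the Asp-GTC level turned with the scaling, which moved the median of all anticodons upwards by 0.25 to 0.32 on the log2 scale: -0.09 became 0.17 with TMM factors (adjusted p = 0.788), 0.17 with column sums (0.719), 0.15 without miRNA reads in the total (0.922) and 0.17 with the tRNA class total (0.831), all by edgeR, and 0.23 with DESeq2 (0.667). Over the whole table the same settings called 4 anticodons higher and 4 lower, 1 and 2, 0 and 0, 5 and 5, and 2 and 1, against 1 and 4 as reported. In the same order of settings, tRNA-Asp-GTC-1-11 turned to 0.22, 0.22, 0.20, 0.21 and 0.16, tRNA-Asp-GTC-1-5 to 0.16, 0.15, 0.13, 0.15 and 0.0907, the second-class 34 nt read to 0.0100, 0.23, 0.19, 0.21 and 0.0468, and tRNA-Asp-GTC-2-1 to 0.0459, 0.0436, 0.0234 and 0.0390 (not with DESeq2). With column sums, without miRNA reads and with the tRNA class total, the 36 nt second-class read turned to 0.0712, 0.0140 and 0.05001, the 35 nt one to 0.11, 0.0502 and 0.0874, and the first-class 34 nt read to 0.24, 0.21 and 0.22 (0.0210 with DESeq2). Its share turned to -0.0233 within the read class. The cause was not tested beyond the shift of the median. Reads of 25 to 29 nt differed by -0.06 percentage points (Alkbh3-/- mean minus wild type), by -0.44 within the first class and 0.0762 within the second, and reads of 30 to 36 nt by 0.89 points, by -1.39 within the first class. Leaving out 1 Alkbh3-/- library gave -0.18 to -0.00416 for the Asp-GTC log2 fold change, -0.54 to 2.31 points for reads of 30 to 36 nt, -3.42 to 0.23 for 37 to 50 nt, -0.12 to 0.00323 for 25 to 29 nt and 0.0147 to 0.0620 for 15 to 24 nt, with no test, since no residual degree of freedom is left. No paired analysis was possible because there is only 1 wild-type library, and the labels do not link it to either Alkbh3-/- library. With 1 wild-type library, its own spread is unknown, and the 95% interval of the Asp-GTC level reaches from -1.12 to 0.93.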
